A study of Mus musculus with 6 samples.

Results

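The extracellular matrix genes of old mouse atria were described across 6 RNA-seq libraries, 3 labelled as lacking protein kinase C epsilon (PKC-epsilon, gene Prkce) and 3 labelled wild type (WT). The set held 45 named genes of 54838 gene identifiers counted: 5 fibrillar collagen genes, 9 basement membrane genes and 31 other matrix genes, and all 45 were found in the table by symbol, each under a single Ensembl identifier. The knockout (KO) mice carried a Prkce knockout and were of the line given as JAX stock #004189, and the controls were C57BL/6J. The part of Prkce that was deleted is not given in the sources used here, and neither is littermate status. Each library came from the atrial tissue of an old mouse, at an average age of 20.9 ± 0.43 months (the kind of error is not stated), and animals of both sexes were used.

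The labels of 4 of the 6 libraries contradict each other, so each comparison was made in both readings. The names of the libraries, under which the count table lists them, give KO 1, KO 2, KO 3, WT 1, WT 2 and WT 3 (here the genotype of the library name is followed by the replicate number that the title gives). The title, genotype field and mouse line give KO for the libraries KO 1, WT 2 and WT 3, and WT for WT 1, KO 2 and KO 3. Unless the genotype field is named, KO and WT below are library names, and values are listed from replicate 1 to 3. KO 1 and WT 1, the only pair on which all labels agree, have library names starting with Old, and the names of the other 4 start with a number.

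The matrix that surrounds heart cells is made mainly by fibroblasts. Fibrillar collagens give it tensile strength, with type I stiffer than type III, and elastic fibres give recoil. Basement membranes, sheets of laminin, type IV collagen, nidogen and perlecan, wrap cardiomyocytes and capillaries. Lysyl oxidases cross-link collagen and elastin, metalloproteinases cut matrix proteins, and matricellular proteins and small proteoglycans tune how fibrils assemble. Matrix accumulation in the atria, fibrosis, is a known feature of ageing and of atrial fibrillation.

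Total counts ran from 11574206 to 24138824 per library, of which 17.4% to 19.51% came from mitochondrial transcripts. Prkce, the targeted gene, was at 9.199, 5.149 and 28.63 CPM (counts scaled to the TMM-normalised library size) in the KO libraries, against 36.22, 11.7 and 30.2 CPM in the WT libraries. The library labelled KO 3 was thus close to WT 3, and the library labelled WT 2 close to KO 1. Read by genotype field, KO 2 (field WT) and WT 3 (field KO) went against their label. Summed Y-linked genes were at 126.1, 84.12 and 78.9 CPM in the KO libraries, against 1.079, 1.094 and 146.1 CPM in the WT libraries. By these levels WT 1 and WT 2 came from females and the rest from males. Sex thus goes largely with the library name, and sex and label cannot be fully told apart in that reading. By genotype field each group holds both sexes. The first principal component of all genes held 39.9% of the variance and set WT 1 apart. In neither reading do the labels have the level of the targeted gene on their side in all libraries, and directions below are directions between labels.

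Of the 45 matrix genes 43 passed the low-count filter and were tested with the 14708 genes that passed it. The other two, Timp1 and Timp3, encode inhibitors of metalloproteinases and had 0 counts in all 6 libraries, which allows up to 0.17, 0.218 and 0.147 CPM in the KO libraries and 0.18, 0.252 and 0.132 CPM in the WT libraries if their reads could be counted. Timp1 (chromosome X, 20870166 to 20874735) lies wholly inside Syn1, and Timp3 (chromosome 10, 86300372 to 86349506) wholly inside Syn3, both on the opposite strand; coordinates here are GRCm38, from GENCODE M21. Among 1378 protein-coding genes that other genes cover from end to end, 1351 (98%) were at 0, against 19.6% of the 19568 protein-coding genes that others cover by 50% or less. Of the 1378, 1118 had over 50% of their exonic bases free of other exons, and 1100 of these (98.4%) were at 0. A 0 for Timp1 and Timp3 is therefore no measure of their expression. Tnc, with 27.4% of its exonic bases free, and Loxl2, with 14.4% of its body free because of the antisense gene Gm27177, were counted over an unknown part of their reads.

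Col4a1 and Col4a2, which encode the chains of the commonest type IV collagen, sit head to head on chromosome 8 and are transcribed away from a shared promoter. In GENCODE M21, Col4a2 starts at 11312805 on the plus strand and Col4a1 starts at 11312826 on the minus strand, so their first exons overlap by 22 bases (GRCm38.p6, chr8:11312805-11312826, plus strand, sequence from RefSeq). These bases are shown because both genes begin there and their levels moved apart between libraries, as given further on. The capitals mark a GC box, found by a search for GGGCGG or its reverse complement CCGCCC.
Col4a2/Col4a1 overlap: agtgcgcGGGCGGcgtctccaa
The box starts at base 8 of the 22. Of 32851 RefSeq promoters, 1344 (4.09%) hold such a box in the 22 bases from the gene start on, and a match is only a description of these letters.

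Per kilobase of exon, the most abundant matrix transcript was Sparc, which encodes a collagen-binding matricellular protein, with a mean of 226 CPM per kb over the 6 libraries. It was followed by the small proteoglycans Dcn (decorin) at 186 and Bgn (biglycan) at 161 CPM per kb, and by the metalloproteinase inhibitor Timp2 at 94.4 CPM per kb. Lum (lumican), of the same family, stood at 60.5 CPM per kb. Col4a2 was the highest basement membrane gene, at 50.8 CPM per kb, and Col3a1 the highest fibrillar collagen gene, at 40.3 CPM per kb. Col1a1 and Col1a2, the chains of type I collagen, were close to each other at 21.9 and 20.8 CPM per kb. Col12a1, a fibril-associated collagen, was lowest at 0.274 CPM per kb. These levels divide by the exonic bases that no other gene overlaps, which the counting itself may not have done.

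The matrix genes varied together between libraries, and the pattern cut across the library names. KO 2 and WT 2 were the 2 highest libraries for 26 of 43 tested members (60.5%), against 10.3% of all genes tested. KO 3 and WT 1 were the 2 lowest for 25 members (58.1%), against 8.23% of all genes, and both held for 18 members (41.9%), against 2.36% of all genes. The median deviation of the members from each gene's mean over the libraries was 0.06, 0.33 and -0.38 on the log2 scale in the KO libraries, against -0.26, 0.31 and -0.01 in the WT libraries. KO 3 lay below the gene mean for 42 of 43 members and KO 2 above it for 37. By library name each group thus holds a library at the high end and a library at the low end. By genotype field WT holds KO 2 and both low libraries, and KO holds WT 2. In bulk tissue, fewer cells of a type and less RNA per cell cannot be told apart. Members that move together are not independent, so these counts describe a shared pattern and do not add up as evidence.

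**Figure D1:**
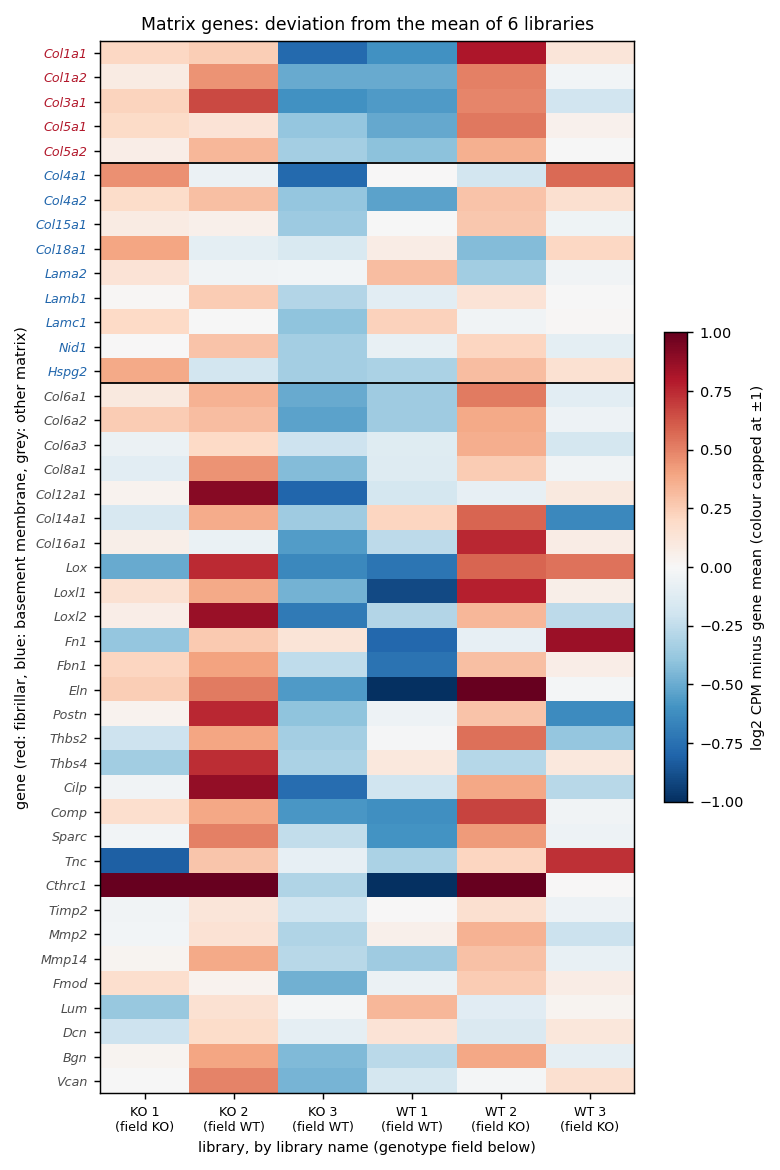
Heat map of 43 tested matrix genes (rows, red names fibrillar, blue basement membrane, grey other matrix) in 6 libraries (columns, library name with genotype field below); colour is log2 CPM minus the gene's mean over the 6 libraries, capped at ±1. Most rows are red in KO 2 and WT 2 and blue in KO 3 and WT 1, with medians of 0.33, 0.31, -0.38 and -0.26 in those libraries.

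The members spread more over the 6 libraries than genes in general: the median SD of log2 CPM was 0.392 over the members and 0.272 over all genes tested. Cthrc1, a collagen triple helix repeat protein made by activated fibroblasts, varied most (SD 2.387) at a low level. It had 58, 21 and 10 counts in the KO libraries (3.29, 1.52 and 0.489 CPM), against 0, 16 and 14 counts in the WT libraries (0, 1.35 and 0.614 CPM), where the 0 allows up to 0.18 CPM. Eln, which encodes elastin, came next (SD 0.788), at 91.1, 111 and 51.8 CPM in the KO libraries, against 33.7, 156 and 75.9 CPM in the WT libraries. For Eln, WT 2 was 4.62-fold above WT 1. Both library names give WT, while by genotype field WT 2 is KO and WT 1 is WT. Lox, the founding lysyl oxidase, followed (SD 0.692), at 6.53, 15.6 and 5.92 CPM in the KO libraries, against 5.58, 13.9 and 13.5 CPM in the WT libraries. At the other end, Timp2 stood at 357, 399 and 319 CPM in the KO libraries, against 367, 410 and 354 CPM in the WT libraries (SD 0.13). Dcn (SD 0.166) and Lamb1 (SD 0.188), a laminin beta chain gene, came next, with Lamb1 at 101, 119 and 82 CPM in the KO libraries, against 93.4, 110 and 99.7 CPM in the WT libraries.

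The fibrillar collagen genes followed the shared pattern closely. Summed over Col1a1, Col1a2, Col3a1, Col5a1 and Col5a2, their level was 981.4, 1228 and 591 CPM in the KO libraries, against 602.3, 1268 and 836.3 CPM in the WT libraries. Col1a1 (chromosome 11, 94936224 to 94953042) was at 155, 160 and 78.4 CPM in the KO libraries, against 88.2, 235 and 146 CPM in the WT libraries. WT 2 was highest, KO 3 and WT 1 were lowest, and the groups overlapped. Col1a2, the partner chain of type I collagen, was at 263, 339 and 175 CPM in the KO libraries, against 175, 351 and 244 CPM in the WT libraries. Col3a1, the type III collagen found with type I in the same fibrils, was at 430, 582 and 242 CPM in the KO libraries, against 249, 516 and 322 CPM in the WT libraries. The minor collagens that nucleate these fibrils had the same pair of libraries at the low end, with WT 1 below KO 3: Col5a1 was at 53.9, 52 and 36.1 CPM in the KO libraries, against 33.2, 68.3 and 48.8 CPM in the WT libraries, and Col5a2 ran from 57 to 97.1 CPM.

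**Figure D2:**
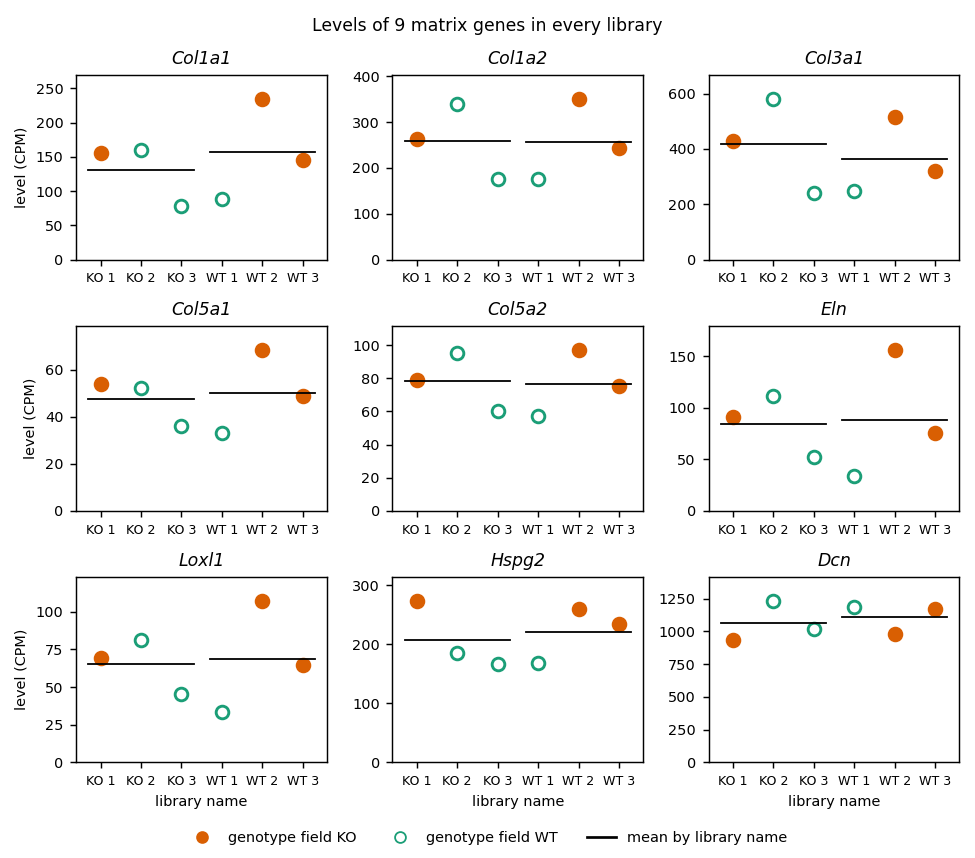
Level in CPM (y axis, from 0) of 9 matrix genes in each library (x axis, library name); filled points have the genotype field KO, open points the field WT, and lines are means by library name. Col1a1 runs from 78.4 CPM in KO 3 to 235 CPM in WT 2, and by library name the groups overlap in all 9 panels, while for Hspg2 all filled points lie above all open points.

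Basement membrane genes varied less between libraries as a sum, with a level of 1373, 1272 and 920.7 CPM in the KO libraries, against 1097, 1323 and 1286 CPM in the WT libraries. Hspg2 (perlecan, the heparan sulphate proteoglycan of basement membranes; chromosome 4, 137468769 to 137570630) was at 273, 185 and 166 CPM in the KO libraries, against 169, 260 and 234 CPM in the WT libraries. KO 1, WT 2 and WT 3 were its 3 high libraries, which are the libraries with the genotype field KO. Col4a1 was at 147, 103 and 62.3 CPM in the KO libraries, against 107, 94.1 and 158 CPM in the WT libraries, with KO 3 lowest and WT 3 highest. Col4a2 was at 310, 336 and 209 CPM in the KO libraries, against 188, 333 and 306 CPM in the WT libraries, with WT 1 lowest. Of the laminin chain genes, Lamb1 had the same 2 highest and 2 lowest libraries as Col4a2, and the other two did not: Lama2, the alpha chain of muscle laminin, was highest in WT 1 (84.6 CPM) and lowest in WT 2 (53.7 CPM), and Lamc1, a gamma chain, was also highest in WT 1 (204 CPM). Col15a1, Nid1 and Lamb1, for a basement membrane zone collagen, nidogen and a laminin beta chain, each stayed within 1.55-fold between the lowest and the highest library, and Col18a1, which encodes the collagen that gives rise to endostatin, was low at 4.29 to 7.67 CPM.

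The type IV chains moved apart between libraries by more than counting error. There were 2.11 counts of Col4a2 per count of Col4a1 in KO 1 (95% Clopper-Pearson interval of the counts 2.02 to 2.21), 3.27 in KO 2 (3.08 to 3.47) and 3.36 in KO 3 (3.16 to 3.58), against 1.76 in WT 1 (1.66 to 1.86), 3.54 in WT 2 (3.31 to 3.78) and 1.93 in WT 3 (1.85 to 2.01). The intervals, which cover counting error only, leave a gap between 2.21 and 3.08, with KO 2, KO 3 and WT 2 above it and KO 1, WT 1 and WT 3 below it. Neither reading of the labels has this arrangement: the mean ratio was 2.913 ± 0.697 in the KO libraries and 2.41 ± 0.982 in the WT libraries (SD, n = 3 each; exact permutation test, two-sided, p = 0.4), and by genotype field it was 2.527 ± 0.882 and 2.797 ± 0.899 (p = 1 in the same exact test). The antisense genes that overlap the pair hardly took reads: Gm15418, inside Col4a1, had 0, 2 and 4 counts in the KO libraries, against 0, 0 and 6 in the WT libraries, and Gm15419, inside Col4a2, had none. These counts do not tell how many reads of the pair went uncounted where genes overlap. Of the exonic bases, 76.3% were free of other genes for Col4a1 and 83.4% for Col4a2. The part of overlap in the ratio was not tested. Lamc1 over Lamb1, which join in the same laminins, was at 1.98, 1.45 and 1.6 in the KO libraries, against 2.18, 1.53 and 1.75 in the WT libraries.

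**Figure D3:**
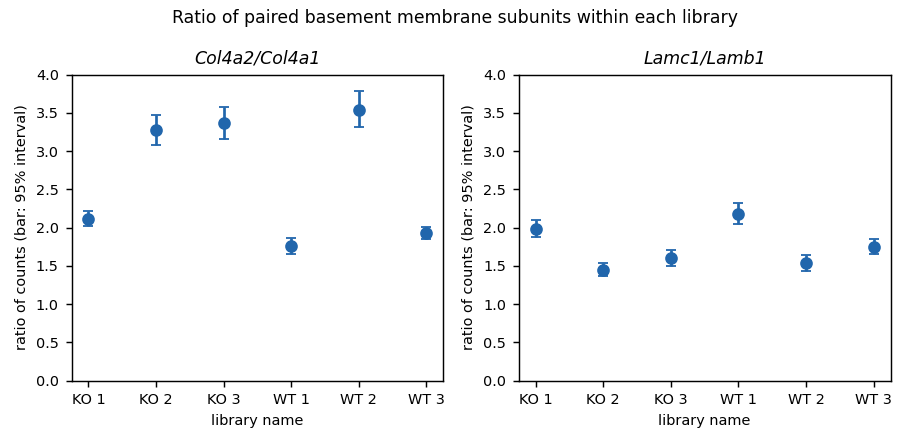
Counts of Col4a2 per count of Col4a1 (left) and of Lamc1 per count of Lamb1 (right) in each library (x axis, library name); bars are 95% Clopper-Pearson intervals and cover counting error only. Col4a2 over Col4a1 lies at 3.27 to 3.54 in KO 2, KO 3 and WT 2 and at 1.76 to 2.11 in KO 1, WT 1 and WT 3.

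Among the other collagens, the type VI genes Col6a1 and Col6a2 followed the fibrillar ones. Type VI collagen forms beaded filaments around cells. Col6a1 was at 138, 164 and 91 CPM in the KO libraries, against 101, 185 and 120 CPM in the WT libraries, and Col6a2 ran from 80.2 to 151 CPM. Col6a3 ran from 40 to 59.7 CPM, with KO 3 and WT 3 rather than KO 3 and WT 1 as its lowest libraries. Col16a1, a fibril-associated collagen (chromosome 4, 130047840 to 130099283), was at 12.8, 11.8 and 8.37 CPM in the KO libraries, against 10.3, 20.9 and 13 CPM in the WT libraries, with WT 2 alone above 13 CPM. Col14a1, another fibril-associated collagen, departed from the pattern with 103 CPM in WT 1 and 56.5 CPM in WT 3, its lowest library. Col8a1, a network collagen of vessels, was highest in KO 2 (43.3 CPM) and otherwise at 23.4 to 37.7 CPM, and Col12a1 was at 2.25 to 7.4 CPM.

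Eln and its cross-linking enzyme gene Loxl1 had both their highest and their lowest library among the WT libraries. Loxl1 was at 69.6, 81.4 and 45.1 CPM in the KO libraries, against 33.4, 107 and 65 CPM in the WT libraries, which is the same order of libraries as for Eln. Fbn1 (fibrillin-1, the microfibril scaffold of elastin) was at 110, 126 and 80 CPM in the KO libraries, against 57.2, 118 and 100 CPM in the WT libraries. Loxl2, which cross-links type IV collagen, ran from 15.9 CPM in KO 3 to 47.2 CPM in KO 2. Fn1 (fibronectin, the glycoprotein on which collagen fibrils assemble) had its own order, at 108, 169 and 155 CPM in the KO libraries, against 81.9, 133 and 255 CPM in the WT libraries.

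Of 8 matricellular genes, 4 were highest in KO 2: Postn, Cilp, Sparc and Thbs4. Postn (periostin, made by activated fibroblasts and valve cells) was at 235, 386 and 173 CPM in the KO libraries, against 221, 279 and 148 CPM in the WT libraries, and only KO 2 stood above 300 CPM. Cilp, a cartilage intermediate layer protein also known from cardiac fibroblasts, was at 12.1 CPM in KO 3 and at 37.9 CPM in KO 2. Sparc was at 811, 1180 and 697 CPM in the KO libraries, against 546, 1110 and 797 CPM in the WT libraries. Comp, a collagen-binding thrombospondin, was at 68.7, 80.2 and 40.9 CPM in the KO libraries, against 39.9, 98 and 59.9 CPM in the WT libraries. The other thrombospondins stood lower, Thbs2 at 21.1 to 40.6 CPM and Thbs4 at 3.07, 6.53 and 3.13 CPM in the KO libraries, against 4.2, 3.2 and 4.21 CPM in the WT libraries. Tnc (tenascin-C, a protein of injury and remodelling) was nearly silent over its countable part, at 1.14, 2.47 and 1.91 CPM in the KO libraries, against 1.62, 2.36 and 3.38 CPM in the WT libraries.

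Small proteoglycans did not all share the order of the collagens. Bgn followed the collagens, at 976, 1260 and 705 CPM in the KO libraries, against 794, 1260 and 902 CPM in the WT libraries. Dcn, its close relative, was at 936, 1230 and 1020 CPM in the KO libraries, against 1190, 980 and 1170 CPM in the WT libraries, so that WT 1, low for most collagens, was its second highest library. Lum, which limits fibril diameter, was lowest in KO 1 and highest in WT 1, at 113, 163 and 145 CPM in the KO libraries, against 184, 135 and 150 CPM in the WT libraries. Bgn counts per Dcn count accordingly ran from 0.667 in WT 1 to 1.28 in WT 2. Fmod (fibromodulin) was at 50.5, 46 and 32.1 CPM in the KO libraries, against 43.2, 53.6 and 47.3 CPM in the WT libraries, and Vcan (versican, a large proteoglycan) ran from 25 to 48.6 CPM. Of the proteases, Mmp2, a gelatinase, stayed at 102 to 160 CPM and Mmp14, the membrane-bound activator of Mmp2, at 62 to 103 CPM, and Mmp2 counts per Timp2 count stayed between 0.306 and 0.391.

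Between KO and WT by library name, no matrix gene passed the test. Of 43 tested members 0 had an adjusted p under 0.05 in edgeR's quasi-likelihood test (background 0% of 14708 genes), 0 had an unadjusted p under 0.05 (background 1.49%) and 0 had groups that did not overlap in CPM (background 5.95%). DESeq2 and limma-voom also called 0 members, and 0 members had an unadjusted p under 0.05 in either. In KO, 17 members were higher (39.5%, background 45.5%) and 26 lower, with a median log2 fold change (KO over WT) of -0.05, against -0.02 for all genes tested. The medians were 0.01 for fibrillar collagen genes, -0.02 for basement membrane genes and -0.06 for the others. Adjusted p was 0.99993 for every member in edgeR's test.

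The members nearest to the threshold by library name did not pass the test. Col16a1 averaged 11 ± 2.34 CPM in KO and 14.7 ± 5.49 CPM in WT (SD, n = 3 each), a log2 fold change of -0.41 (SE 0.28). Tnc was at -0.43 (SE 0.43) and Fmod at -0.16 (SE 0.18) on the same scale. On the higher side, Cthrc1 was at 1.49 (SE 0.99), a fitted value that depends on the prior count because WT 1 had 0 counts, Postn at 0.29 (SE 0.31) and Fbn1 at 0.20 (SE 0.26). Col1a1 averaged 131 ± 45.6 CPM in KO and 156 ± 73.8 CPM in WT, a log2 fold change of -0.26 (SE 0.39), and Col3a1 averaged 418 ± 171 CPM in KO and 362 ± 138 CPM in WT, at 0.21 (SE 0.35).

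The balance of directions by library name rested on single libraries and changed with the Y-linked level as a covariate. Without KO 2, 4 members were higher and 39 lower in KO, and without KO 3, 35 were higher and 8 lower. Without WT 1, 8 were higher and 35 lower, and without WT 2, 31 were higher and 12 lower. Upper-quartile scaling gave 21 higher and 22 lower. The Y-linked level as a covariate gave 26 higher and 17 lower. Without KO 3 and WT 2, the libraries whose Prkce level goes against the library name, 36 were higher and 7 lower, 11 of them at an unadjusted p under 0.05 (background 3.77%), a choice made after the values were seen. No member was called in any of these fits.

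By genotype field, most matrix genes were higher in KO, and none passed the main test. In edgeR's quasi-likelihood test 0 of 43 members had an adjusted p under 0.05 (background 0.0136%, which is 2 genes). An unadjusted p under 0.05 was held by 5 members, all higher (11.6%, background 4.34% for higher and 5.69% for either direction). That count rested on single libraries: it was 22 without KO 2, 1 without KO 3, 2 without WT 2 and 3 without WT 1, in each case all higher. In all, 33 members were higher and 10 lower, a share higher of 76.7% against 48.1% of all genes tested. The median log2 fold change was 0.18, against -0.01 for all genes. It was 0.32 for the fibrillar collagen genes, of which 5 of 5 were higher (0.24 to 0.72), 0.16 for basement membrane genes, of which 8 of 9 were higher, and 0.13 for the others, of which 20 of 29 were higher. Groups that did not overlap in CPM were found for Col16a1, Fmod and Hspg2, all higher (6.98% of members, background 7.48% for higher). That share is no larger than that of all genes, and since the members move together the 33 are not separate observations. Without KO 2 and WT 3, whose Prkce level goes against the field, 38 members were higher and 5 lower, 21 of them at an unadjusted p under 0.05 (background 5.43%) and none called, also a choice made after the values were seen.

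Hspg2 had the smallest p by genotype field. Its level was 256 ± 20.1 CPM in the field KO libraries and 173 ± 10.3 CPM in the field WT libraries (SD, n = 3 each), and each of the KO values, 273, 260 and 234 CPM, exceeded each of the WT values, 169, 185 and 166 CPM. The log2 fold change was 0.56 (SE 0.14, adjusted p = 0.606 in edgeR's test). DESeq2 gave 0.55 (SE 0.14) with an adjusted p of 0.0418 and called 27 genes (0.184%), so whether Hspg2 was called depended on the tool. Col1a1 averaged 179 ± 48.8 CPM in the field KO libraries and 109 ± 44.3 CPM in the field WT libraries, a log2 fold change of 0.72 (SE 0.29), with overlapping groups. Col16a1 was at 0.61 (SE 0.24), Col4a1 at 0.55 (SE 0.24) and Col5a1 at 0.50 (SE 0.19), and the adjusted p of these and of Col1a1 was 0.868 in edgeR's test. The lower members nearest to the threshold were Lum at -0.30 (SE 0.15), Thbs4 at -0.39 (SE 0.33) and Dcn at -0.16 (SE 0.15).

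**Figure D4:**
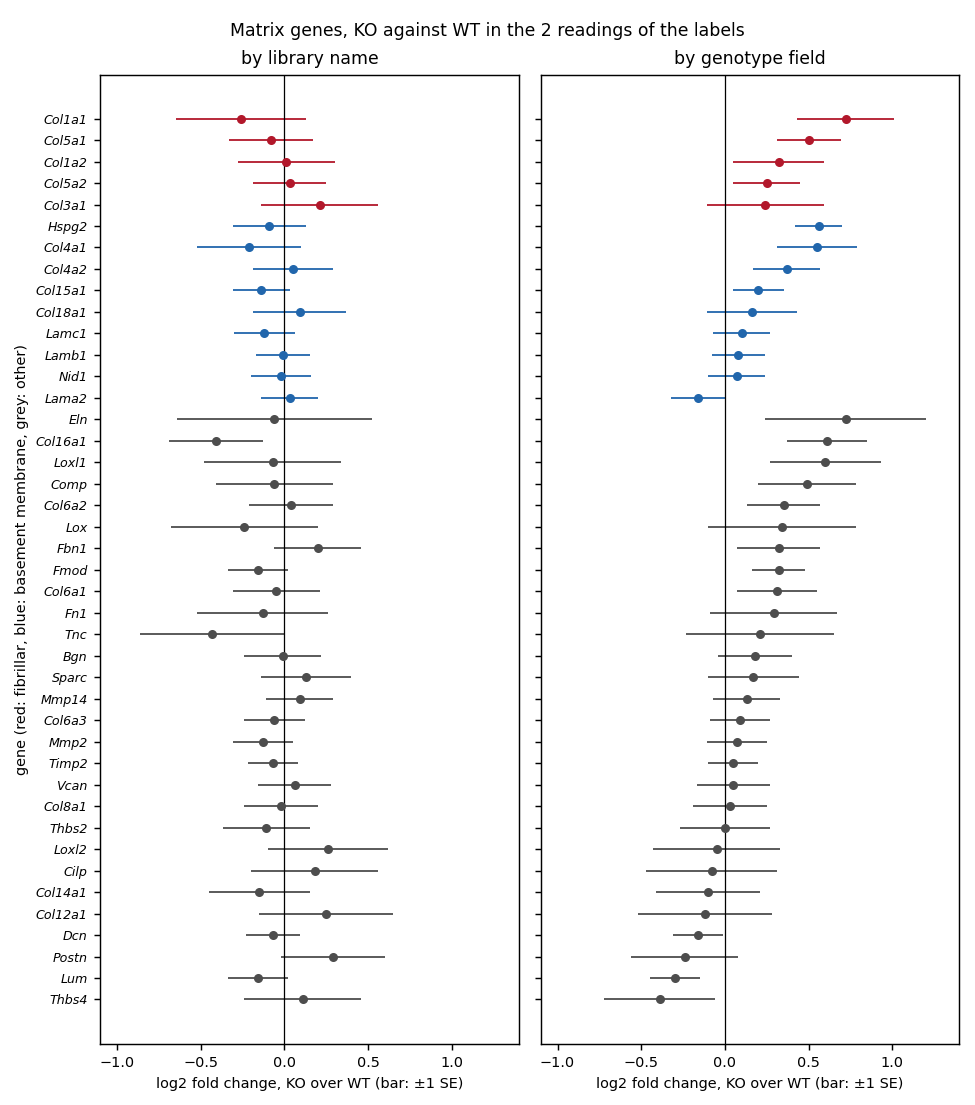
Log2 fold change, KO over WT, of 42 tested matrix genes (rows; Cthrc1, with 0 counts in WT 1, is left out) by library name (left) and by genotype field (right); points are edgeR estimates, bars ±1 SE, red fibrillar, blue basement membrane, grey other matrix. By library name the points scatter around 0 (median of the 43 members -0.05), and by genotype field most lie to its right (median 0.18).

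With the replicate number as a block, Col1a1 was called higher in KO by genotype field. The labels do not state that these numbers pair the libraries, and the pairing is uncertain. The pairs are then KO 1 with WT 1, WT 2 with KO 2, and WT 3 with KO 3, and Col1a1 was at 155 against 88.2 CPM, 235 against 160 CPM, and 146 against 78.4 CPM, higher in 3 of 3 pairs. The blocked log2 fold change was 0.76 (SE 0.14, adjusted p = 0.0195 in edgeR's test), the only call among the members, with 51 genes (0.347%) called in that fit. The call was lost without pair 1, at 0.72 (adjusted p = 0.072), and without pair 3, at 0.67 (adjusted p = 0.0525), and held without pair 2, at 0.85 (adjusted p = 0.0247), where Eln was also called. Members near the threshold were Loxl1 at 0.66 (SE 0.15, adjusted p = 0.0662), Eln at 0.82 (SE 0.17, 0.071) and Hspg2 at 0.56 (SE 0.14, 0.0913), all higher in 3 of 3 pairs. An unadjusted p under 0.05 was held by 13 members, all higher (background 6.6% for higher and 2.73% for lower). In all, 14 of 43 members (32.6%) were higher in 3 of 3 pairs, against 16.9% of all genes, and Lama2 alone was lower in 3 of 3 (2.33%, against 14%). By library name the block called 0 genes (background 0%), and 1 member was higher (2.33%, against 11.1% of all genes) and 2 were lower (4.65%, against 9.65%) in 3 of 3 pairs.

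The balance between collagen chains was also compared, over 9 ratios chosen after the values were seen. By genotype field 3 of the 9 had groups that did not overlap, and by library name 0 did. No background was computed for ratios, and the 12% of single genes without overlap by genotype field is a different measure. Col1a1 over Col1a2 was at 0.589, 0.668 and 0.6 in the field KO libraries, against 0.503, 0.471 and 0.449 in the field WT libraries. Col5a1 over Col5a2 was at 0.679, 0.704 and 0.647 in the field KO libraries, against 0.581, 0.546 and 0.601 in the field WT libraries. Col1a1 over Col3a1 was at 0.36, 0.455 and 0.455 in the field KO libraries, against 0.355, 0.274 and 0.324 in the field WT libraries, a narrow gap. This ratio shares Col1a1 with Col1a1 over Col1a2, so they are not separate observations. Each of the 3 had p = 0.1 in an exact permutation test, two-sided, which is the smallest p that 3 against 3 allows, and 0.514 after adjustment over the 18 tests of 9 ratios in both readings. The partner chain genes themselves were at 0.32 (SE 0.27, Col1a2) and 0.25 (SE 0.20, Col5a2) on the log2 scale by genotype field.

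The only pair with undisputed labels, KO 1 against WT 1, has no replicate and gets no test. By the Y-linked levels (126.1 CPM in KO 1, 1.079 CPM in WT 1) it also sets a male against a female, so sex and label cannot be told apart in it. In KO 1, 33 of 43 members were higher and 10 lower than in WT 1, with a median log2 difference of 0.30, against 0.01 for all genes tested. Past 1 log2 unit were 3 members, Eln at 1.44, Loxl1 at 1.06 and Cthrc1, which had 58 counts against 0; of all genes tested 5% were past that size. Fbn1 was at 0.95, Col1a1 at 0.81, Col3a1 at 0.79 and Comp at 0.78, while Lum was at -0.71 and Thbs4 at -0.45. In the other 4 libraries alone, where the readings are mirror images, 10 members were higher and 33 lower in KO by library name, and the reverse by genotype field; 2 had an unadjusted p under 0.05 and none was called (4.72% of genes had such a p). WT 1, the library that stands apart, belongs to the WT side in both readings, and without it 29 members were higher and 14 lower by genotype field, with 3 at an unadjusted p under 0.05.

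Of the fibroblast, smooth muscle and macrophage marker sums, only the macrophage sum had the 2 highest and 2 lowest libraries of most matrix genes. It did so by a narrow margin, and single markers within the lists differed from their sums. The fibroblast and smooth muscle sums were highest in WT 2 and WT 3 and lowest in WT 1 and KO 1. The part of these markers in the results was not tested beyond the fit with the fibroblast markers. Of 10 fibroblast markers 9 were above 0 in all libraries and Tcf21 was at 0 (its body, like those of Timp1 and Timp3, is wholly covered by other genes); their sum was 433, 499 and 447 CPM in the KO libraries, against 419, 601 and 537 CPM in the WT libraries. Single fibroblast markers did not share an order: Pi16 and Clec3b had the order of the collagens, while Pdgfra was highest in WT 1 (85.2 CPM) and Gfpt2 in WT 3 (134 CPM). Per CPM of the summed fibroblast markers, the fibrillar collagen genes had 2.27, 2.46 and 1.32 CPM in the KO libraries, against 1.44, 2.11 and 1.56 CPM in the WT libraries, so KO 1, KO 2 and WT 2 stayed high. With the fibroblast sum as a covariate, a fit added after the values were seen, 21 members were higher and 22 lower by genotype field and Col1a1 stood at 0.42 with no member called. By library name the same fit gave 30 higher and 13 lower, also with no call. The 5 smooth muscle markers, all detected, summed to 474, 497 and 482 CPM in the KO libraries, against 357, 592 and 515 CPM in the WT libraries. Single smooth muscle markers differed. Acta2 had the order of the collagens, at 163, 274 and 145 CPM in the KO libraries, against 95.1, 258 and 174 CPM in the WT libraries. Myh11 and Tagln shared only its 2 highest libraries and Cnn1 only its 2 lowest. Smtn, a large part of the sum, was lowest in KO 2 (148 CPM). The 6 macrophage markers, all detected, summed to 435, 484 and 413 CPM in the KO libraries, against 354, 549 and 481 CPM in the WT libraries. KO 2 and WT 2 were highest and KO 3 and WT 1 lowest as for the collagens, with KO 2 only just above WT 3. Of these markers, Adgre1 was highest in WT 3 and KO 3. Among the macrophage markers only C1qa, a complement chain made by macrophages, did not overlap by genotype field (background 7.48% for higher). It averaged 112 ± 17.7 CPM in KO and 79.4 ± 15.1 CPM in WT (SD, n = 3 each). On the log2 scale C1qa stood at 0.50 (SE 0.17), and edgeR's test did not call it (adjusted p = 0.786). The other macrophage markers overlapped, with Cd68 at 0.35, C1qb at 0.30, Csf1r at 0.11, Adgre1 at 0.01 and Mrc1 at -0.10 on that scale.

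Ventricular cardiomyocyte markers were mostly higher in KO by genotype field. The myosin light chain genes Myl2 and Myl3, and Irx4, had groups that did not overlap (background 7.48% for higher). The myosin heavy chain gene Myh7 had overlapping groups. Of 4 markers 3 were above 0 in all libraries. Irx4 was too low to be tested, at 10, 11 and 11 counts in the field KO libraries, against 0, 1 and 1 in the field WT libraries. Myl2, the ventricular myosin light chain that defines them, was at 251, 357 and 174 CPM in the field KO libraries, against 32.6, 25.7 and 33.4 CPM in the field WT libraries. Myl2 was among the 2 genes that edgeR's test called by genotype field (adjusted p = 0.00386). It stood at 3.09 (SE 0.25) on the log2 scale, KO over WT. Myl3 was at 165, 189 and 125 CPM in the field KO libraries, against 77.2, 76.1 and 54.4 CPM in the field WT libraries. Myl3 stood at 1.20 (SE 0.19) on that scale and was not called (adjusted p = 0.213 in edgeR's test). Myh7, whose body other genes leave only 33% free, was at 119, 150 and 139 CPM in the field KO libraries, against 176, 47.4 and 280 CPM in the field WT libraries, so its highest library has the field WT. The sum of the 4 was 536, 697 and 439 CPM in the field KO libraries, against 285, 149 and 368 CPM in the field WT libraries, beside fibrillar sums of 981.4, 1268 and 836.3 CPM and 602.3, 1228 and 591 CPM. Adipocyte markers were highest in KO 2 (153 CPM) and lowest in WT 1 (23.2 CPM), and valve, cartilage and tendon markers ran from 98.9 CPM in KO 1 to 191 CPM in WT 2, with nearly all of the sum from Cytl1 and with Chad and Scx, also wholly covered by other genes, at 0. Atrial cardiomyocyte markers, which define the labelled tissue, were all detected and summed to 36600 to 45500 CPM. The part of these markers in the matrix differences was not tested.

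**Figure D5:**
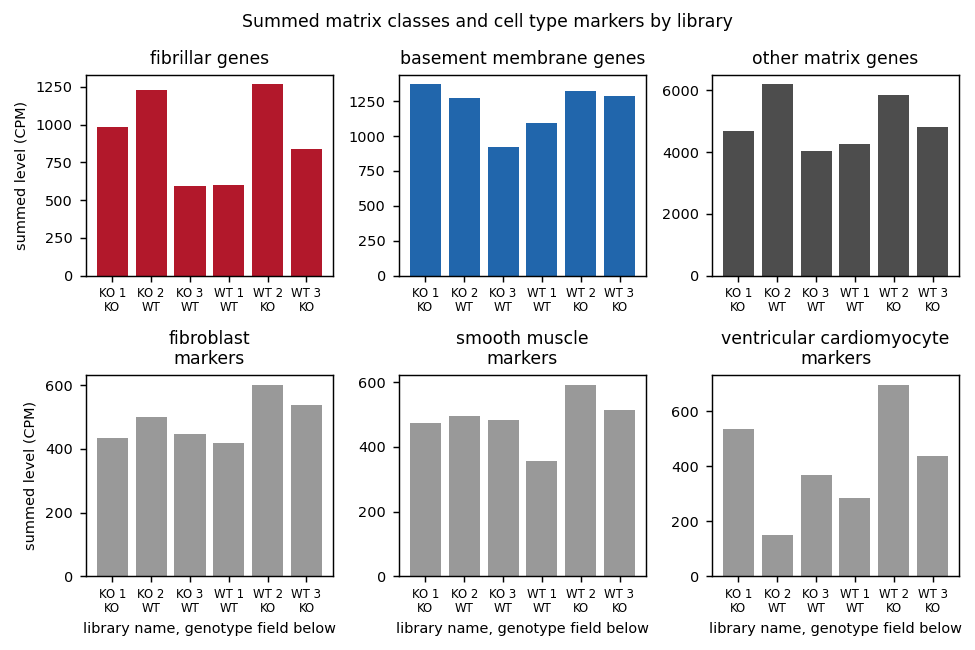
Summed level in CPM (y axes, from 0) of the 3 matrix classes (top) and of the fibroblast, smooth muscle and ventricular cardiomyocyte markers (bottom) in each library (x axis, library name with the genotype field below). The fibrillar sum is highest in WT 2 (1268 CPM) and KO 2 (1228 CPM), and the ventricular marker sum is highest in WT 2 (697 CPM) and lowest in KO 2 (149 CPM).

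Genes that make, process or bind the matrix were also more often higher by genotype field than by library name. Of 160 genes in 6 further lists 136 were tested and 10 were at 0 in all libraries. By library name 49 of 136 were higher in KO (36%, against 45.5% of all genes), 0 had an unadjusted p under 0.05 (1.49% of all genes) and 0 were called. By genotype field 90 were higher (66.2%, against 48.1% of all genes), 13 had an unadjusted p under 0.05 on the higher side (9.56%, against 4.34%) and 2 on the lower side (1.47%, against 1.35%), and 0 were called. By library name, of the collagen synthesis and processing genes 14 of 29 tested were higher, for example the lysyl oxidase Loxl4 at 0.60 (SE 0.41) and the collagen-folding isomerase Ppib at 0.22 (SE 0.15). Of the other collagens 4 of 13 were higher, with Col27a1 at -0.42 (SE 0.32) and Col11a2 at -0.62 (SE 0.54). Of the other basement membrane genes 7 of 21 were higher, with the tubulointerstitial nephritis antigen-like gene Tinagl1 at -0.37 (SE 0.20) and Col4a3 at -0.92 (SE 0.69).

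Of the other matrix glycoproteins and proteoglycans 9 of 29 were higher in KO, with Prg4 (lubricin) at -0.74 (SE 0.38), which rested on 33.5 CPM in WT 3 against 10.2 to 12.7 CPM in the other 5 libraries, and Fbln1 (fibulin-1) at -0.27 (SE 0.16). Of the other proteases and inhibitors 10 of 20 were higher, with Adamts1 at -0.38 (SE 0.26) and the gelatinase Mmp9 at 0.44 (SE 0.31). Of the matrix receptors 5 of 24 were higher, with the syndecan Sdc4 at -0.68 (SE 0.36) and the integrin chain Itgb3 at -0.28 (SE 0.22). By genotype field the smallest p in the 6 lists belonged to Emilin1, an elastic fibre glycoprotein, at 0.78 (SE 0.18, adjusted p = 0.595 in edgeR's test), and to Lamb2, a laminin beta chain, at 0.55 (SE 0.14, adjusted p = 0.641). On the lower side, Col28a1 was at -1.11 (SE 0.41) and the collagenase Mmp13 at -1.02 (SE 0.38).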

How the data were processed

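Gene expression was measured by RNA-seq in 6 atrial samples, 1 library each. Per the labels' protocols, RNA came from RNeasy columns and was prepared with the unstranded TruSeq kit, version v2. The authors deposited raw counts of reads per Ensembl gene in a single table. Per the submitters' processing notes, HISAT2 2.1.0 and featureCounts 1.5.0-p3 were used, with FastQC 0.11.5 for quality and the build GRCm38. What annotation, feature type and strandedness the counting used is not given in the sources used here. Library totals (11574206 to 24138824 counts) limit the precision of low genes, and intervals cover counting error only.

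Counts were tested over all genes with edgeR 4.0.16 in R 4.3.3 (TMM, filterByExpr, robust quasi-likelihood F test, two-sided, Benjamini-Hochberg adjustment, threshold 0.05). CPM values use TMM library sizes, and SDs of log2 CPM use a pseudocount of 0.5. The SE was derived by dividing the size of each log2 fold change by the root of its F statistic. Alternatives were DESeq2 1.42.0, voom from limma 3.58.1, other scalings, filters and covariates, and leaving out each library. The scripts were tested on simulated counts. The matrix genes, gene lists and readings of the labels were chosen with earlier results of these data known. Values in every library are given for members with p under 0.05, the 3 with the smallest p per direction and reading, the 3 most and least variable, the highest per kilobase in each class and those at 0; any other choice of members was made with the values known. Of the further lists, the 2 genes with the smallest p by library name are named, and those named by genotype field were picked by their values. The labels call the libraries biological replicates, and p-values measure the spread between them.

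The replicate numbers of the titles were used as a block. Deviations from the group means correlated between same-numbered libraries at 0.16, 0.16 and 0.12 by library name and at 0.25, 0.21 and 0.12 by genotype field. All exceeded 0.1, so the numbers were taken to pair the libraries, as a property of the data that the labels do not state. Differently numbered libraries reached at most 0.02 by library name (KO 3 with WT 2). By genotype field WT 2 with KO 3 stood at 0.13, above the 0.12 of WT 3 with KO 3. In that reading the cut at 0.1 does not separate same-numbered libraries from the rest, and the pairing is uncertain. All pairs of libraries differed by more than sampling noise (chi-square over its degrees of freedom 18.8 to 61.9).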

Additional observations from a re-analysis of the deposited data

How the results depend on the processing

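By library name the number of all genes called, 0 in the fit reported, was 1 without the low-count filter, 3 in the numbered libraries alone, 0 to 4 leaving out a library (2 without WT 1, 4 without WT 3), 2 with the fibroblast marker sum as a covariate and 2 with the genotype field as label. Without KO 3 and WT 2, whose Prkce level goes against the library name, it was 6, and the median of the members was 0.28 (0.32 for the other matrix genes), with 36 members higher, 7 lower and none called; Prkce, which chose the libraries, was at -2.20 (adjusted p = 0.00895). With the replicate block, 0 genes were called, and 50, 28 and 4 when pair 1, 2 or 3 was also left out. By genotype field the 2 genes called became 27 with DESeq2, 1 with limma-voom, 25 without the filter, 51 with the replicate block, 50, 48 and 83 with the block and pair 1, 2 or 3 left out, 7 with the library series as a covariate, 0 with the library name as label, and 0 to 2 leaving out a library (0 without KO 3 or WT 1, 1 without KO 2, WT 2 or WT 3). Members called by genotype field, 0 in the fit reported, were 1 with DESeq2 (Hspg2), 1 with the replicate block (Col1a1) and up to 2 with the block and pair 2 left out; the block changed no other call of a member. Their median, 0.18, was 0.07 to 0.48 leaving out a library (highest without KO 2).

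Some signs turned. Leaving out a library, Postn ran from -0.08 to 0.53, Fbn1 from -0.05 to 0.43 and Fmod from -0.29 to 0.01 by library name. By library name Fbn1 was at -0.08 in the numbered libraries, -0.05 without WT 1 and -0.11 with the replicate block without pair 1, where Cthrc1 was at -0.05; Postn was at -0.08 without KO 2; Fmod was at 0.01 without KO 3 or with the block without pair 3. Without KO 3 and WT 2, Fmod was at 0.09 and Col16a1 at 0.08. With the genotype field as label these stood at 0.61 (Col16a1), -0.24 (Postn), 0.32 (Fmod) and 0.21 (Tnc). By genotype field Prkce was at 0.30 in the numbered libraries and 0.54 with the block without pair 1. With the library name as label, values were -0.26 for Col1a1, -0.21 for Col4a1, -0.08 for Col5a1, -0.41 for Col16a1, 0.11 for Thbs4 and -0.09 for Hspg2. The fits without KO 3 and WT 2, with the fibroblast covariate and with the block without a pair were chosen after seeing the data. The cause of these shifts was not tested.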
